A study of Bombus lucorum with 81 samples.

Results

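Across 81 workers of the bumblebee Bombus lucorum, 123 of the 10581 genes in the count table followed the level of 4 gut-type transcripts from bee to bee. These 4 genes are 3 peritrophin-1 genes (LOC100642795, LOC100642915 and LOC100643150) and chymotrypsin-1 (LOC100648122). A score was formed for each bee as the mean of their log2(CPM + 1) values, each centred on its mean over the 81 bees, where CPM is the count per 1000000 reads of the library, scaled with the TMM method of edgeR. A gene belonged to the set when its mean was at least 1 CPM and its Spearman rho with the score exceeded 0.8. The set was thus chosen by the expression values of these same bees, and levels, correlations and the spread over bees are given below as a description. Of all genes, 8948 reached a mean of 1 CPM, and 6 further genes passed the rho threshold below that level.

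Peritrophins are chitin-binding proteins of the peritrophic matrix, the sheet that lines the insect midgut and encloses the food. Chymotrypsins are serine peptidases that midgut cells secrete to digest protein. Midgut cells also release sugar-splitting enzymes and lipases, take up sugars and ions through membrane transporters, and include endocrine cells that make peptide hormones.

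The study sequenced poly-A RNA from thorax and abdomen of wild-caught workers, 1 library per bee, after head and gut had been taken out in the field. Belts along the elevational gradient were given by the site's altitude, with 26 bees from 5 highland sites (1579 to 1930 m), 25 bees from 5 mid-elevation sites (1140 to 1423 m) and 30 bees from 6 lowland sites (641 to 987 m). The lowland bees were further divided by the air temperature at capture into 17 bees of high and 13 bees of low sampling temperature, and sites with livestock gave 45 grazed bees against 36 ungrazed bees. All high-class bees came from T3, H2, Wma1 and T4, and all low-class bees from T5, Wmb1 and T4, so that T4 was the only site with bees of both classes. Each bee is a single wild animal, and bees of a site may share a colony. The column totals of the count table ran from 15700759 to 33784279 per bee (median 26082949).

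The bees fell into separate ranges of the score. It lay between 1.54 and 6.65 in 44 bees and between -7.37 and -1.62 in 37 bees, and no bee lay in between. The summed counts of the 123 genes made up 0.172% of a bee's counts at the lowest, 1.08% at the median and 16.4% at the highest. Between 46 and 123 of them exceeded 1 CPM in a bee, with a median of 109. The empty range was the widest gap of the score, and bees beside it were alike in the summed share of the 123 genes. Just above it, bee 4 of H5 had 0.292% and bee 5 of H2 had 0.282%. Just below it, bees 2 and 5 of Wma3 had 0.274% and 0.286%. In bulk RNA of this kind, fewer cells of a type and less RNA per cell cannot be told apart. Transcripts of thorax and abdomen were present in every bee: the muscle markers outside the set summed to at least 2104 CPM, the fat body markers to at least 336 CPM and the cuticle markers to at least 416 CPM.

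**Figure D1:**
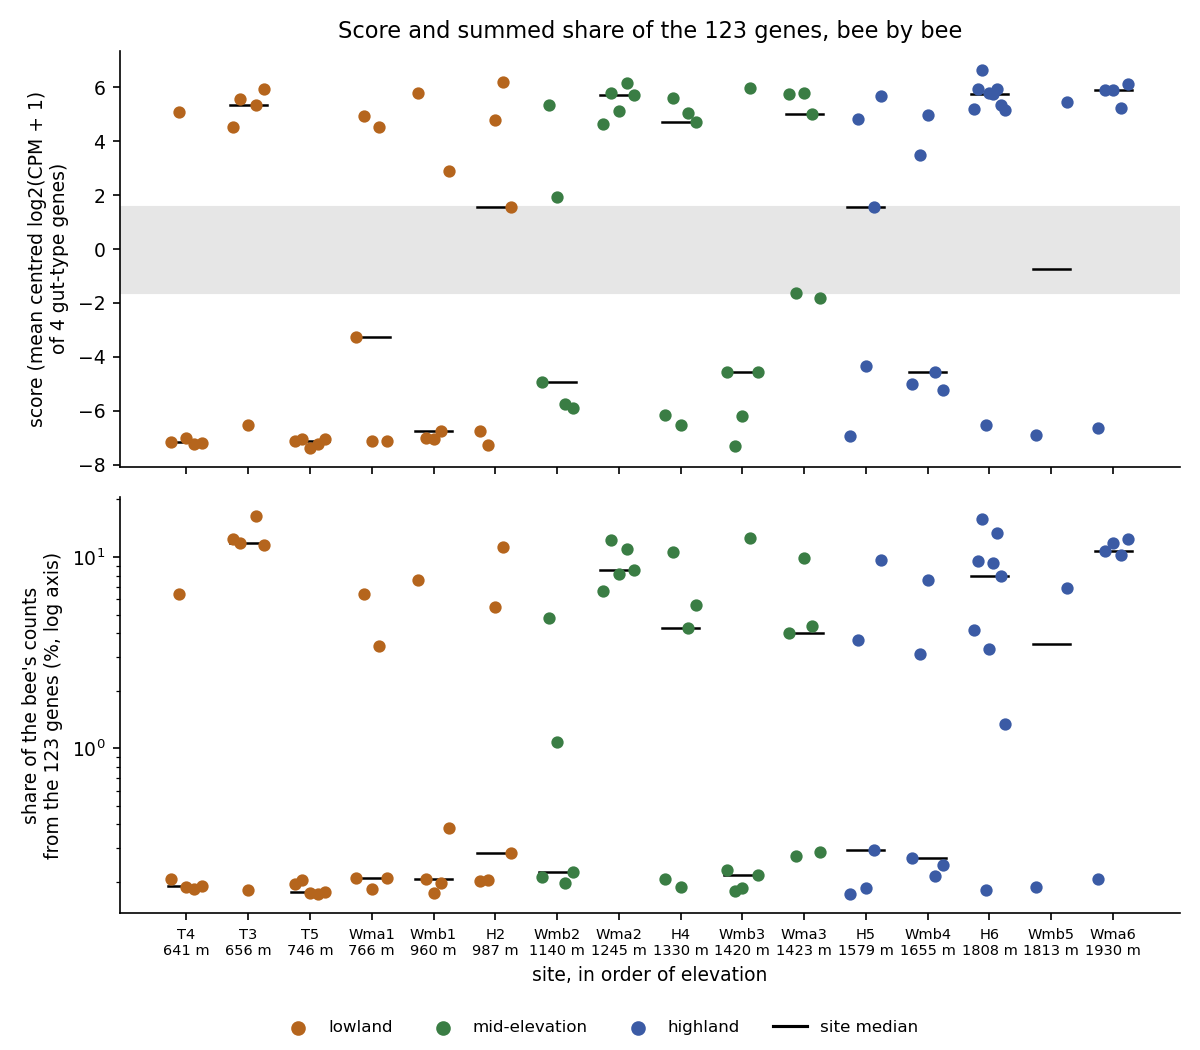
Each point is 1 bee, with the sites in order of elevation and coloured by belt. The upper panel gives the score on a log2 scale with the empty range from -1.62 to 1.54 shaded, and the lower panel gives the share of the bee's counts that came from the 123 genes on a log axis. Black lines are site medians. All 5 bees of Wma2 lie above the empty range and all 5 bees of T5 below it, while the other 14 sites hold bees on both sides.

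The gene with the highest rho was LOC100649426 (rho 0.963), which carries no description here but stands in the study's list of driver genes for amino sugar and nucleotide sugar metabolism. It had 0 CPM in its lowest bee, 244 CPM at the median and 7318 CPM in its highest bee. LOC100647339 (rho 0.952), from the same pathway list, ranged from 0 to 2685 CPM around a median of 123 CPM. Both were thus near absent in some bees and among the well-expressed genes of others. LOC105665627 (rho 0.940) had the highest level of the undescribed genes, with a mean of 4044 CPM and a highest bee of 22839 CPM. LOC100649281 and LOC100646687 followed each other closely, with means of 2528 and 2511 CPM and highest bees of 21684 and 22207 CPM. Their exon lengths of 1597 and 1602 bases were also alike. Reads that matched several genes were counted as fractions, so the level of each of this pair is uncertain.

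The 4 genes of the score themselves averaged between 2729 and 6522 CPM. Among the set, 14 genes averaged more than 1000 CPM, 38 between 100 and 1000 CPM, 54 between 10 and 100 CPM and 17 at most 10 CPM. Levels of different genes are not corrected for length here, and their median exon length was 1792 bases against 2479 bases over the 8948 genes.

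Most of the 123 genes combined a low floor with a high ceiling. Their median 10th percentile over bees was 0.285 CPM and their median 90th percentile 164 CPM, whereas the medians over all 8948 genes were 21.4 and 44.9 CPM. The SD of log2(CPM + 1) over bees had a median of 2.40 in the set and 0.415 over all genes. It exceeded 3 in 45 of the 123 genes, or 36.6%, against 0.693% of all genes. In 77 genes the 10th percentile was under 1 CPM. The SD was under 1 in 17 genes, and 19 genes had a 10th percentile of at least 10 CPM. In 1 gene, LOC100648404, a single bee of Wma2 with 294 CPM carried 54.7% of the summed CPM. The rule was applied to the same values, so they describe the set and were not tested.

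**Figure D2:**
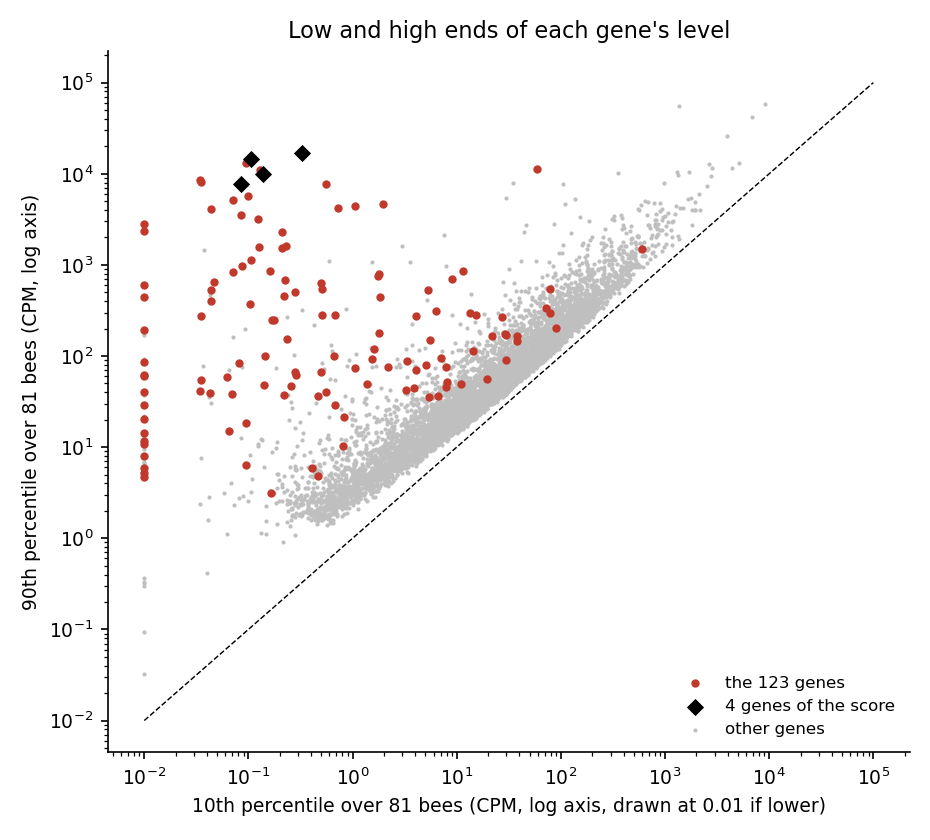
Each point is a gene with a mean of at least 1 CPM, with its 10th percentile over the 81 bees on the horizontal axis and its 90th percentile on the vertical axis, both in CPM on log axes. The dashed line marks equal values. Most of the 123 genes (red) and the 4 genes of the score (black) lie far above the line on the left, and 19 of the 123 have a 10th percentile of at least 10 CPM and lie among the other genes (grey).

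Descriptions were at hand for 58 of the 123 genes, 18 of which read uncharacterized protein. Names of 50 of these came from tables of genes that the study called regulated on these bees, and descriptions covered 17.3% of the 8948 genes with a mean of at least 1 CPM. The named members are therefore not a neutral sample of the set, and the counts by function below are small.

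Digestive enzymes and matrix proteins were few among the named genes, and their levels differed widely. Chondroitin proteoglycan-2 (LOC100642676, rho 0.932) was the highest described gene, with 0 CPM in its lowest bee, 1368 CPM at the median and 17709 CPM at the highest. At T5 it stayed between 0.0329 and 0.214 CPM in all 5 bees, while at Wma2 it lay between 5912 and 10820 CPM. Maltase 1 (LOC100643731, rho 0.851), an enzyme that splits maltose and sucrose into simple sugars, had 21.6 CPM in its lowest bee, 341 CPM at the median and 20094 CPM at the highest. It was detected in every bee, unlike chondroitin proteoglycan-2. Lipase 3 (LOC100647241, rho 0.818), a fat-splitting enzyme, had a median of only 1.72 CPM and a highest bee of 444 CPM. Chymotrypsin inhibitor (LOC100644982, rho 0.833) ranged from 4.29 to 1061 CPM around a median of 164 CPM. Whether it acts on the chymotrypsin-1 of the score was not tested.

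Of the 21 gut digestion genes found by name, 4 formed the score and only maltase 1 and lipase 3 entered the set. Zinc carboxypeptidase LOC100649831 came close, with rho 0.782 and a mean of 2583 CPM, as did zinc carboxypeptidase LOC100643891 with rho 0.788 and a mean of 6.05 CPM. Trypsin 3A1-like (LOC100651109) had rho 0.815 but a mean of 0.289 CPM. Aminopeptidase N (LOC100648041), a peptidase of the gut cell surface, reached rho 0.723 at a mean of 0.730 CPM. Other genes with digestive names did not follow the score, among them pancreatic triacylglycerol lipase (LOC100647261) with rho -0.25, chymotrypsin-2 (LOC105665786) with rho 0.163 and the peritrophin-1 gene LOC100651311 with rho 0.0107 and a mean of 0.0282 CPM.

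Of the marker lists of other tissues, 1 of 14 muscle genes belonged to the set, and 0 of 6 fat body, 0 of 7 cuticle, 0 of 6 venom gland, 0 of 2 nerve and 0 of 4 immune genes did. Of 2 genes named as V-type proton ATPase, 1 did. The median rho was -0.02 in the muscle list, -0.34 in the fat body list, -0.52 in the nerve list, -0.09 in the cuticle list, -0.18 in the immune list and 0.230 in the venom gland list. The highest rho was 0.687 in the cuticle list, 0.637 in the immune list and 0.688 in the venom gland list. The muscle gene in the set carries the name titin (LOC100643023) at an exon length of only 1848 bases. It had 3.91 CPM at the lowest, 18.1 CPM at the median and 101.5 CPM at the highest. Another gene named titin (LOC105665841, mean 838 CPM) had rho -0.35. No gene reached a rho below -0.8, and the most negative was -0.68 (LOC100648690).

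Membrane transport was represented by 5 described genes. Transporters were 8.62% of described members, against 5.81% of described genes with a mean of at least 1 CPM. Facilitated trehalose transporter Tret1 (LOC100647285, rho 0.901), which carries the insect blood sugar across cell membranes, ranged from 0.0380 to 1969 CPM with a median of 39.6 CPM. Choline transporter-like protein 1 (LOC100643702, rho 0.802) was present in every bee, from 9.16 to 593 CPM. The V-type proton ATPase 16 kDa proteolipid subunit (LOC100646343, rho 0.822), part of the membrane ring of the proton pump that energises insect epithelia, varied least of these, from 487 CPM at the lowest through 913 CPM at the median to 2144 CPM at the highest. Outside these 5, renin receptor (LOC100644809, rho 0.806), known in other animals as an accessory protein of the same pump, had a similarly narrow range of 75.8 to 265 CPM around 122 CPM. Sodium/potassium/calcium exchanger 3-like (LOC100646614) and sodium-independent sulfate anion transporter (LOC100646638) averaged 13.5 and 4.64 CPM.

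Transcription factors were low in level. Homeobox protein Nkx-2.2a (LOC100648138, rho 0.874) had a median of 5.51 CPM and a highest bee of 241 CPM. POU domain, class 2, transcription factor 1 (LOC100644394, rho 0.816) had a median of 1.21 CPM and a highest bee of 69.1 CPM. A putative zinc finger protein (LOC105666029) did not exceed 8.50 CPM. Protein drumstick (LOC100645174), a zinc finger protein of gut and appendage development in Drosophila, stood just inside the threshold with a median of 4.62 CPM.

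Peptide hormone genes were also in the set, chosen for mention after their values were seen. Short neuropeptide F (LOC100643034, rho 0.866), a feeding-related peptide in insects, had a median of 2.75 CPM and a highest bee of 26.1 CPM. Orcokinin peptides (LOC105666199, rho 0.837) had a median of 7.73 CPM and a highest bee of 56.9 CPM, and allatostatins (LOC100648558, rho 0.830), which are known from brain and midgut endocrine cells of insects, a median of 1.53 CPM and a highest bee of 15.4 CPM. Heads and guts had been taken out in the field, and the source of these transcripts within the samples was not tested. Other well-expressed genes with a description included proline-rich receptor-like protein kinase PERK9 (LOC105665991, mean 909 CPM), aldose reductase (LOC100652258, mean 200 CPM) and plastin-2 (LOC100649047, an actin-bundling protein, mean 195 CPM).

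The study's lists of pathway drivers held 22 of the 123 genes. Amino sugar and nucleotide sugar metabolism, which supplies the building blocks of chitin, held 7 of them. Neuroactive ligand-receptor interaction held 6, and chymotrypsin-1 of the score stands in the same list. Lysosome held 5 and starch and sucrose metabolism 2. These lists were drawn up by the study from the same bees, so they are not independent evidence of direction. They were not counted over all genes, so the counts do not show whether a pathway is particular to the set.

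Genes next to each other on a contig were present in the set. A direct neighbour in the set was found for 9 of the 123 genes, or 7.32%, against 2.17% of the 8948 genes, and 21.1% lay within 50 kb of another member against 9.31%. Neighbouring pairs included LOC105665627 and LOC100651129, 4921 bases apart, and chymotrypsin inhibitor and LOC100645469, 1693 bases apart. Neighbouring genes were not tested for shared reads.

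At the rho threshold, acetyl-CoA acetyltransferase (LOC100648426) with 0.80068 and protein drumstick with 0.80009 were just inside. LOC100649899 with 0.79883 and LOC100644556 with 0.79878 were just outside, with means of 175 and 4.92 CPM. The set is therefore a slice of a continuum. A rho above 0.9 was found in 21 genes.

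Because the bees form separate ranges of the score, rho was also computed within each range. In the 44 bees above the empty range, rho exceeded 0.5 in 94 of the 123 genes and had a median of 0.588, against 370 of all 8948 genes and a median of -0.02. In the 37 bees below it, rho exceeded 0.5 in 26 genes and had a median of 0.236, against 37 of all genes. Both held for 24 genes. LOC100649426 kept 0.930 below and 0.809 above, and chondroitin proteoglycan-2 kept 0.844 below and 0.670 above. Choline transporter-like protein 1 had -0.05 below and 0.396 above, and myophilin (LOC100642913), a small actin-associated protein, 0.0586 below and 0.559 above. No member had a negative rho above the range, and 12 had one below it. All of these bees entered the rule, so the values are a description.

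**Figure D3:**
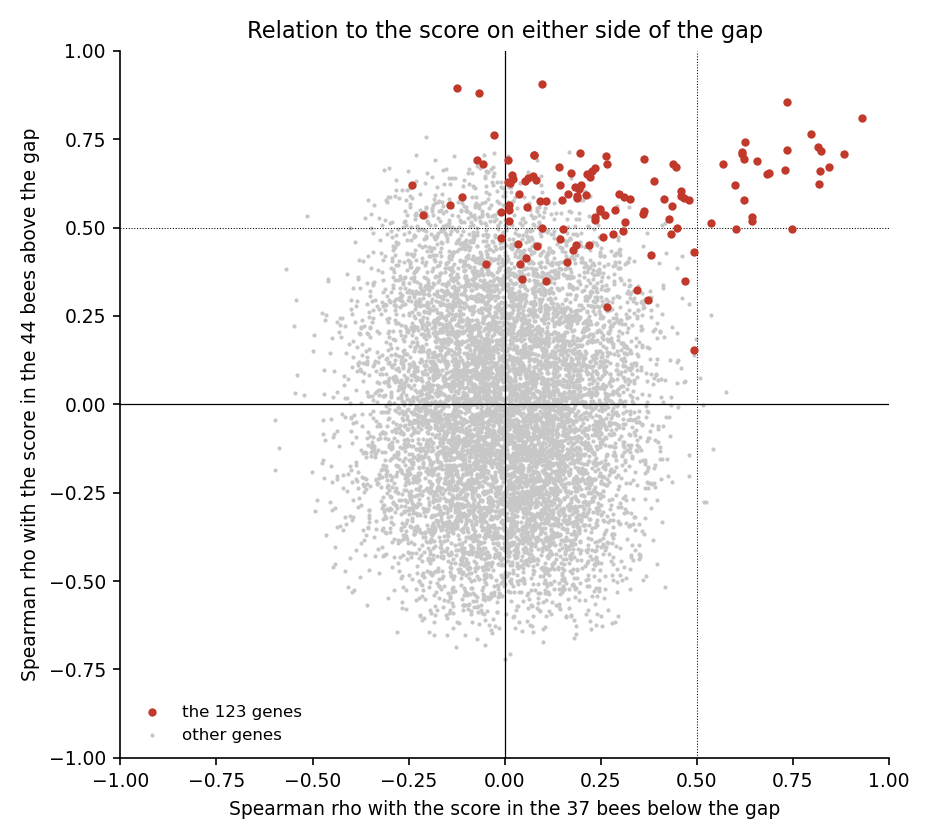
Each point is a gene with a mean of at least 1 CPM, placed by its Spearman rho with the score in the 37 bees below the empty range (horizontal) and in the 44 bees above it (vertical), with dotted lines at 0.5. All 123 genes (red) are above 0 on the vertical axis, and 24 lie beyond 0.5 on both axes, while the other genes (grey) centre near 0.

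Sites differed in how many bees lay above the empty range. In order of elevation, the lowland sites had 1 of 5 bees at T4, 4 of 5 at T3, 0 of 5 at T5, 2 of 5 at Wma1, 2 of 5 at Wmb1 and 3 of 5 at H2. The mid-elevation sites had 2 of 5 at Wmb2, 5 of 5 at Wma2, 3 of 5 at H4, 1 of 5 at Wmb3 and 3 of 5 at Wma3. The highland sites had 3 of 5 at H5, 2 of 5 at Wmb4, 8 of 9 at H6, 1 of 2 at Wmb5 and 4 of 5 at Wma6. T5 and Wma2 were uniform, and the rest mixed. The mean score was -7.17 ± 0.135 at T5 and 5.49 ± 0.595 at Wma2 (SD, n = 5 each), against SDs of at least 3.98 elsewhere. Site accounted for a median share of 0.353 of the variance of log2(CPM + 1) in the 123 genes, against 0.273 over all genes.

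A test for any difference among the 16 sites, the quasi-likelihood F test of edgeR with Benjamini-Hochberg adjustment, called 40 of the 123 genes at an adjusted p under 0.05. Over all genes tested it called 26%, against 32.5% of the set. Renin receptor had the smallest p (adjusted p = 0.000258), with site medians from 81.0 CPM at T5 to 206 CPM at T3. LOC100648404 (adjusted p = 0.00116) had its highest bee and its highest site median at Wma2, where its lowest bee had 3.36 CPM and its median was 10.9 CPM. Lipase 3 (adjusted p = 0.00123) had site medians from 0.520 CPM at Wmb4 to 30.9 CPM at T3. By spread, 16 of the 17 genes with an SD under 1 were among the 40, 23 of the 61 with an SD from 1 to 3, and 1 of the 45 with an SD over 3, and chondroitin proteoglycan-2 was not among them. Over all genes, 8371 of 8948 had an SD under 1, and calls by spread were not counted there. DESeq2 called 71 of the 123 genes in the test among sites, with 43.5% of all genes tested called.

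Over the 16 sites, the mean score had a Pearson r of 0.462 and a Spearman rho of 0.476 with elevation, -0.45 and -0.50 with mean annual temperature, 0.127 and 0.130 with plant richness, and -0.72 and -0.66 with plant cover. The score chose the set, and sites share belt and transect, so these are descriptions.

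In the lowland bees, the 99 members that passed the filter on low counts all had a positive log2 fold change of high over low sampling temperature, and 25 rose past both thresholds, which were an adjusted p of 0.05 and a log2 difference of 0.5. None fell. With site as a random block in limma 0 of 99 tested members were called (28 at an unadjusted p under 0.05). With counts summed per site in edgeR 0 of 123 were (55 at an unadjusted p under 0.05). Over all genes these fits called 0% and 0.01%. In the fit over single bees, 4.06% of all genes were called, 3.1% higher and 0.967% lower. The other 24 members did not pass the filter. The median log2 fold change was 2.56 over the 99 members and -0.0028 over all 9305 genes tested, and without the filter it was 2.73 over all 123 members, each of them above 0. It was 1.70 over 77 members without T3 and 6.74 over 123 without Wmb1. With temperature in °C it was 1.48 over 99 members, scaled to the difference between the mean temperatures of the classes. The members share the pattern of the score, so these are not separate pieces of evidence. The score was above the empty range in 10 of 17 high-class bees and in 2 of 13 low-class bees.

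Of the 25 called genes, all had a description, and 23 of these names came from the study's tables of regulated genes. Myophilin had 60.1 CPM at the lowest, 394 CPM at the median and 776 CPM at the highest of the 17 high-class bees, against 64.1, 83.9 and 336 CPM in the 13 low-class bees. The ranges overlapped, and the lowest bee of all was of the high class. Its log2 fold change was 1.63 (SE 0.364, adjusted p = 0.0156 from edgeR).

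The uncharacterized gene LOC100650836 had 6.63, 45.7 and 121 CPM at the lowest, median and highest of the high-class bees, against 3.72, 7.01 and 42.3 CPM in the low-class bees (log2 fold change 2.19, SE 0.499, adjusted p = 0.0167). Choline transporter-like protein 1 had 10.5, 180 and 515 CPM in the high-class bees, against 10.9, 20.02 and 116 CPM in the low-class bees (log2 fold change 2.49, SE 0.614, adjusted p = 0.0229). Both had overlapping ranges with higher medians in the high class.

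The 3 peptide hormone genes named above were among the called genes. Allatostatins had 0.127, 2.18 and 10.7 CPM in the high-class bees, against 0.148, 0.424 and 2.53 CPM in the low-class bees (log2 fold change 2.03, SE 0.537, adjusted p = 0.0281). Orcokinin peptides had a log2 fold change of 2.42 (SE 0.686) and short neuropeptide F one of 3.16 (SE 0.963). These are low-level genes, with medians of 9.00 and 8.97 CPM in the high-class bees, against 1.15 and 0.170 CPM in the low-class bees.

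Among the transcription factors, POU domain, class 2, transcription factor 1 (log2 fold change 2.91) and the putative zinc finger protein LOC105666029 (1.42) were called. Nkx-2.2a was not, with a log2 fold change of 3.04 (SE 0.989, adjusted p = 0.0589). Of the proton pump genes, renin receptor rose, with 87.1, 130 and 265 CPM in the high-class bees, against 75.8, 96.1 and 150 CPM in the low-class bees (log2 fold change 0.60, SE 0.157, adjusted p = 0.0277). The 16 kDa subunit missed the threshold, with 564, 1032 and 2144 CPM against 523, 680 and 1223 CPM (log2 fold change 0.60, SE 0.188, adjusted p = 0.0513). Other called genes included UDP-N-acetylhexosamine pyrophosphorylase (LOC100642344, log2 fold change 1.37), which makes the activated sugar for chitin and glycan synthesis, aldose reductase (2.59), glucose dehydrogenase (LOC100643171, 2.39), glutaredoxin-C4 (LOC100644863, 0.74) and 23 kDa integral membrane protein (LOC100648222, 1.79).

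The genes of highest level and widest spread had large but imprecise fold changes. Chondroitin proteoglycan-2 had 0.0846, 3138 and 16270 CPM at the lowest, median and highest of the high-class bees, against 0, 0.173 and 7066 CPM in the low-class bees, with a log2 fold change of 3.25 (SE 1.90, adjusted p = 0.287). Maltase 1 had 21.6, 3474 and 20090 CPM in the high-class bees, against 61.5, 91.8 and 6705 CPM in the low-class bees (log2 fold change 2.97, SE 1.09, adjusted p = 0.0884). Tret1 had 0.0467, 333 and 1969 CPM in the high-class bees, against 0.0380, 0.188 and 889 CPM in the low-class bees (log2 fold change 2.75, SE 1.62, adjusted p = 0.291). Each of these split into near-absent or low and high bees within the high class. Lipase 3 had a log2 fold change of 0.01 (SE 1.01).

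By spread, 7 of 16 tested genes with an SD under 1 were called, 16 of 45 with an SD from 1 to 3, and 2 of 38 with an SD over 3. The median standard error of the log2 fold change was 0.288, 0.769 and 1.58 in these groups. Calls by spread were not counted over all genes.

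**Figure D4:**
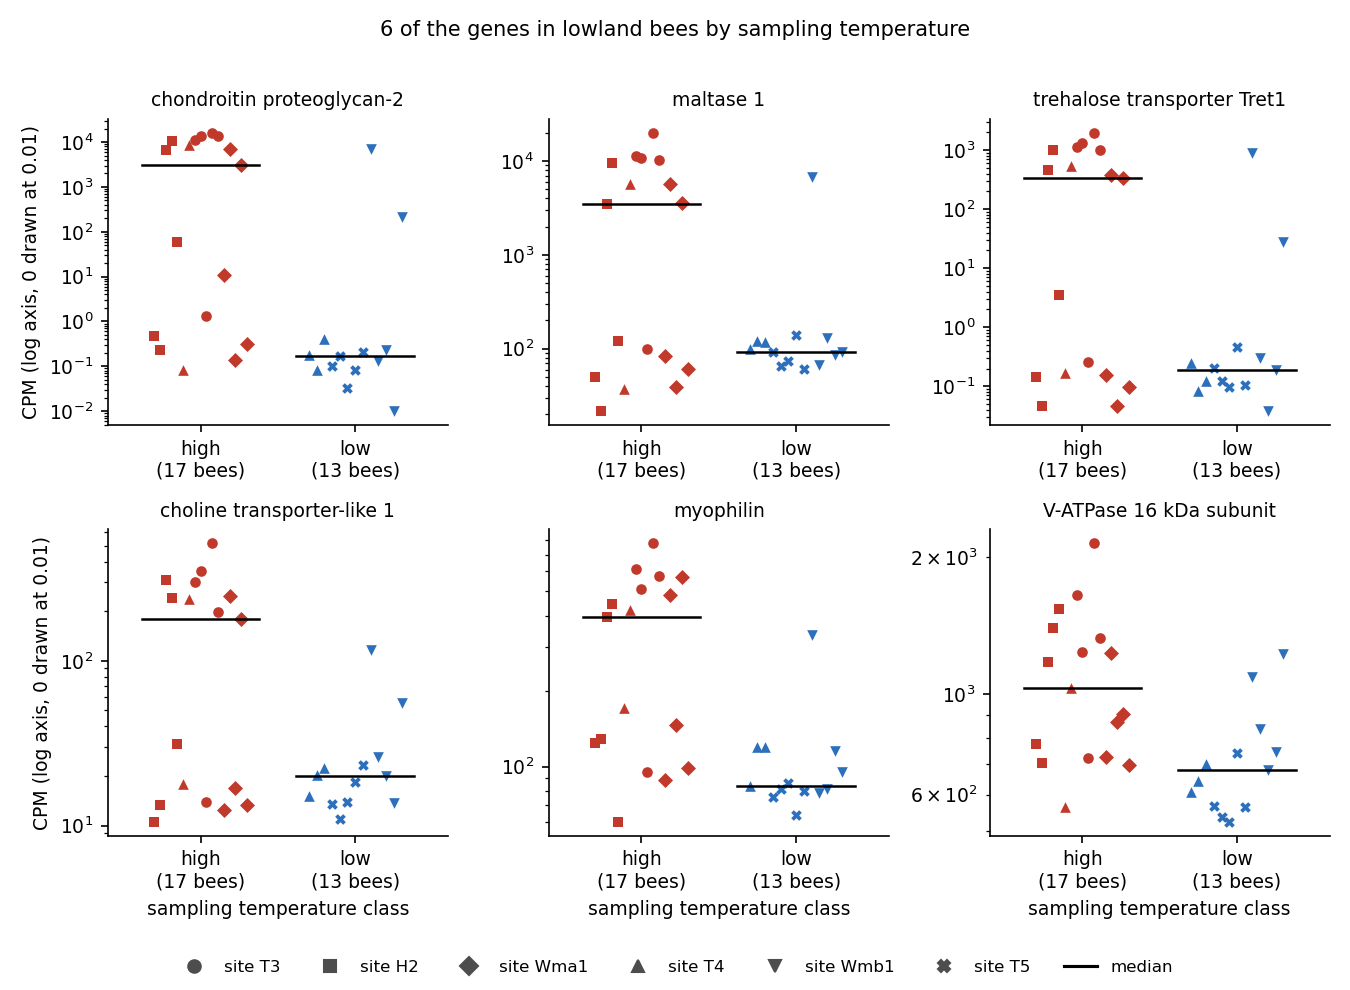
Points are single lowland bees, with CPM on a log axis, high sampling temperature (red, 17 bees) left of low (blue, 13 bees), marker shapes for sites and black lines for medians. In all 6 genes the median is higher in the high class, and the highest low-class bee is from Wmb1. In the 5 panels other than the V-ATPase subunit the high-class bees split into a low and a high group.

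The count of called members rested on single sites. It was 0 of 112 tested members without T4, 0 of 123 without T5, 3 of 77 without T3 and 119 of 123 without Wmb1. The share of all genes called was 0.545%, 0.636%, 3.36% and 6.09% in these fits, against 4.06% with all sites. Within T4, the 2 high-class bees had scores of -7.16 and 5.08 and the 3 low-class bees scores from -7.23 to -6.99. Myophilin there had 171 and 422 CPM in the high-class bees and 83.9 to 120 CPM in the low-class bees. Outside T4, site and sampling temperature cannot be told apart.

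Other measures moved with the class. The gut digestion genes outside the set and the score summed to between 351 and 14142 CPM (median 1386) in the high class and between 484 and 3190 CPM (median 797) in the low class, and 2 of the 10 tested were called higher. Their median log2 fold change was -0.23. Zinc carboxypeptidase LOC100649831 (rho 0.782) had a mean of 2583 CPM over the 81 bees, against a mean of 3191 CPM for the sum. Most of the sum thus came from 1 gene just under the rho threshold. The muscle markers outside the set summed to between 2764 and 35990 CPM (median 3468) in the high class and between 3404 and 46648 CPM (median 5204) in the low class, with 0 of 12 tested genes called in either direction by edgeR and a median log2 fold change of -0.83. The venom gland genes summed to between 428 and 1793 CPM (median 713) in the high class and between 750 and 2178 CPM (median 1357) in the low class, with 1 of 5 called lower. The immune genes summed to between 873 and 24030 CPM (median 2264, mean 4774) in the high class. In the low class they summed to between 893 and 8341 CPM (median 4065, mean 3857). Of these 4 genes 1 was called lower, and their median log2 fold change was 0.15. The nerve genes had medians of 27.5 CPM in the high class and 37.8 CPM in the low class, with 0 of 2 called, and 0 of 6 fat body and 0 of 7 cuticle genes were called. The length slope of a library, the change in log2 CPM per log2 unit of exon length, had a median of 0.179 in the high class and 0.230 in the low class. With this slope as a covariate 73 members were called higher, with 7.98% of all genes called. The part of these measures in the result was not tested. The paper reports that RNA integrity differed between samples, and RNA integrity entered no fit here.

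Between the belts, no member passed the thresholds. Highland bees lay above the empty range in 18 of 26 cases, mid-elevation bees in 14 of 25 and lowland bees in 12 of 30. For highland against lowland edgeR called 0 of 123 members, with 0.686% of all genes called (0.179% higher and 0.507% lower), and 6 members had an unadjusted p under 0.05. The median log2 fold change was 0.74 over the members and 0.01 over all genes, and 122 members were above 0. This median was 0.36 with grazing as a covariate, 1.5 without T3 and 1.94 with site as a random block in limma. The limma value compares means of log2 values and the edgeR value mean counts, so the 1.94 differs in measure as well as in the block. Allatostatins had one of the smallest p values (log2 fold change 1.18, SE 0.398, adjusted p = 0.101). Chondroitin proteoglycan-2 had 0.106, 4773 and 17710 CPM at the lowest, median and highest of the highland bees, against 0, 0.435 and 16270 CPM in the lowland bees, with a log2 fold change of 0.82 (SE 1.05, adjusted p = 0.726). The ranges were nearly the same while the medians differed by the side on which most bees lay. Without the lowland site T3, 14 members were called higher in highland bees, with 2.62% of all genes called.

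For mid-elevation against lowland edgeR called 0 members, with 0.369% of all genes called (0.116% higher and 0.253% lower) and 4 members at an unadjusted p under 0.05. The median log2 fold change was 0.39 over the members, -0.04 without Wma2, 1.11 without T3, 0.82 with grazing as a covariate and 1.49 with site as a random block. LOC100648404 came closest (log2 fold change 3.38, SE 0.886, adjusted p = 0.0515), the gene that a single Wma2 bee dominated. Maltase 1 had 25.3, 1671 and 12760 CPM in the mid-elevation bees, against 21.6, 108 and 20090 CPM in the lowland bees (log2 fold change 0.40, SE 0.715). For highland against mid-elevation edgeR called 0 members, with 0.211% of all genes called (0.106% in each direction) and 0 members at an unadjusted p under 0.05, and the median log2 fold change was 0.33, 0.11 without Wma6, 0.78 without Wma2 and -0.42 with grazing as a covariate. These comparisons share bees. DESeq2 called 0 members in all 3.

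Between grazed and ungrazed bees, edgeR called 0 of the 123 members, with 0.181% of all genes called (0.0426% higher and 0.139% lower), and 8 members had an unadjusted p under 0.05. DESeq2 called 0 as well. The median log2 fold change was -0.55, and 120 members were below 0. It was -0.21 with site as a random block in limma and -0.80 with belt as a covariate. The score was above the empty range in 23 of 45 grazed bees and in 21 of 36 ungrazed bees. Renin receptor had 82.7, 121 and 217 CPM at the lowest, median and highest of the grazed bees, against 75.8, 130 and 265 CPM in the ungrazed bees (log2 fold change -0.24, SE 0.104, adjusted p = 0.302). Grazed sites included all mid-elevation sites, so belt and grazing were unevenly combined.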

How the data were processed

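The authors trimmed reads with Cutadapt 2.5, mapped them with STAR 2.7.2b onto the genome of B. terrestris (Bter_1.0) and counted exonic reads by strand with featureCounts 1.6.4. What they deposited are estimated counts, not normalized, since reads with several matches were counted as fractions, and 28.5% of the values are not whole. They were rounded to whole numbers, filtered with filterByExpr and tested by edgeR 4.0.16 in R 4.3.3 (quasi-likelihood F test, TMM scaling, Benjamini-Hochberg adjustment over all genes tested). The belts entered 1 model over all 81 bees, sampling temperature used the 30 lowland bees, and grazing and site used all bees. Sampling temperature class and grazing of each bee came from the study's site tables. CPM for the score used a pseudocount of 1. Standard errors were recovered from the log2 fold change and its F value.

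Each bee counted as independent, and bees of a site had an estimated correlation of 0.125 for temperature, 0.105 for belts and 0.115 for grazing (limma 3.58.1). The study found no groups of related bees in its barcode sequences, and bees of a site may share a colony. Alternatives were DESeq2 1.42.0 with and without a fold-change prior, its size factors, no filter, no fold threshold and site as random block. Further ones were counts summed per site, bee number as block, covariates, temperature in °C, and each site left out. Fold changes with temperature in °C were scaled to the difference between the class mean temperatures. The limma fit averages log2 values and edgeR models mean counts, so their fold changes are unlike measures. The depth of 15700759 to 33784279 counts per bee leaves genes near 1 CPM with few reads per bee. Only the edgeR fit for sampling temperature was run on simulated data with known changes. The simulated bees were independent, without site effects or separate ranges of the score, so the simulation cannot speak to those features.

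The members and lists were chosen with earlier results of these data known. Genes named are the 10 with the highest rho, the 10 with the highest mean, the 3 called with the smallest p in each comparison and direction, those at the threshold, the 2 highest of each function group and the gut digestion list. Only those that a result turned on are described, and other names were chosen after their values were seen. Contigs carry accessions only, so no coordinates are printed, and no sequences were used here.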

Additional observations from a re-analysis of the deposited data

Results flagged for a closer look

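In 5 of the 15 sites with at least 5 bees, 1 bee lay far from the others of its site in the score. The score chose the set and falls into separate ranges, so the usual rate of about 1 in 20 groups does not apply, and the values are a description. Bee 4 of H6 was the lowest of 9 at -6.53, bee 3 of T3 the lowest of 5 at -6.52, and bee 1 of Wma6 the lowest of 5 at -6.64. Bee 2 of T4 was the highest of 5 at 5.08 and bee 4 of Wmb3 the highest of 5 at 5.96.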

How the results depend on the processing

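Membership changed with the rule. A rho above 0.75 gave 234 members, 0.85 gave 57, Pearson r gave 214 with 113 shared, and a score without chymotrypsin-1 gave 62. Without 1 site there were 106 to 133 members. For sampling temperature the 25 called members (4.06% of all genes called) became 67 with DESeq2 (8.25%) and 53 with its fold-change prior (7.71%). They became 0 with site as a random block (0%). With counts summed per site they became 0 (0.01%, 55 of 123 tested members at an unadjusted p under 0.05). With the length slope as covariate they became 73 (7.98%), and with temperature in °C 5 (2.32%). Leaving out 1 site gave 0 (T4 or T5, 0.545% and 0.636%) to 119 (Wmb1, 6.09%) members. The number of members that passed the filter differed between these fits. The bee numbers did not pair the bees (mean correlation 0.0288 over 555 pairs, lowest -0.777). The fit with bee number as replicate block called 21 members, with 2.24% of all genes called. The log2 fold change of lipase 3 turned negative in 5 settings. It was -0.037 with counts summed per site and -0.18 with temperature in °C, scaled to the difference between class means. Without T3, T4 or T5 it ran from -1.34 to -0.20 (from -1.34 to 4.46 over all sites left out). Myophilin and LOC100650836 kept their call in 12 of 16 alternatives and choline transporter-like protein 1 in 10 of 16, with highest adjusted p of 0.194, 0.208 and 0.269. For highland against lowland, leaving out 1 site gave 0 to 14 members. For mid-elevation against lowland it gave 0 to 2, and no filter or DESeq2 size factors gave 1. For any difference among sites DESeq2 gave 71, with 43.5% of all genes called. The causes were not tested. The other settings left each count of called members within 1.5 times. Depth limits the genes near 1 CPM, which had few reads per bee, and the comparisons of classes and belts rest on few sites.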
